A study of Mus musculus with 6 samples.

Results

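This section follows 40 genes of the cell cycle and of DNA replication in the mesonephros of male mouse embryos at embryonic day 16.5. They were taken by gene symbol from a written list, made with earlier results of these data known. The rule used no threshold on their values, and all 40 were found among the 14366 genes of the deposited table. They fall into 16 genes of G1/S and replication and 24 genes of G2/M and mitosis. Messenger RNA was sequenced from 6 libraries, 3 of each group. Control embryos had the genotype Osr2Cre+;Gata2-flox/+, with 1 floxed and 1 unfloxed allele of Gata2. Gata2cKO embryos had the genotype Osr2Cre+;Gata2-flox/flox, with both alleles floxed, so both groups carried the recombinase. Cre driven by Osr2 acts in cells that express Osr2, whereas the tissue sequenced was the whole mesonephros with its tubule region. The study asked what Gata2 in the mesenchyme does for the Wolffian duct, which becomes the epididymis in males. Whether each sample is a different embryo is not stated in the labels, so the tests cover the spread among these 6 samples, which may be technical.

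A cell passes through G1, copies its DNA in S phase, and divides after G2. Cyclins with their kinases drive each step: D and E cyclins open the way to S phase, and cyclins A and B with Cdk1 bring the cell into mitosis. E2F transcription factors switch on the G1/S genes, and the MuvB complex with B-Myb and Foxm1 switches on the genes of G2 and mitosis. In the growing duct and its mesenchyme the summed level of these messages in bulk tissue depends on how many cells are cycling.

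The promoters of the members were searched for motifs linked to these kinds of control. The 250 bases before the start of each gene were searched on both strands for 3 motifs. The E2F motif was taken as any of 4 words (TTCCCGC and also TTGGCGC and also TTCGCGC and also TTGCCGC), the CHR element of late cell cycle genes as either TTTGAA or else TTCGAA, and the CCAAT box as CCAAT. Matches may overlap each other, and a match is a description and not a shown binding site. RefSeq promoters (GRCm38.p6) were matched for 33 of the 40 members. A member was counted if any of its listed starts held a match, whereas the share over all promoters counts each start alone. This difference in unit can only raise the shares of the members. An E2F match was found for 7 of 13 G1/S members (53.8%) and 3 of 20 G2/M members (15.0%), against 7.89% of all 32817 promoters searched. A CHR match was found for 2 of 13 G1/S members (15.4%) and 9 of 20 G2/M members (45.0%), against 17.1% of all promoters. CCAAT matched in 9 of 13 (69.2%) and 18 of 20 (90.0%), against 33.8% of all. The 7 stretches printed here are the 200 bases before the gene start, shown because they carry the E2F pattern (Mcm5, Mcm6, Rrm1), the CHR pattern (Top2a, Kif11), both (Mki67) or neither (Kif23, a member with lower values in Gata2cKO). Capitals mark any match to the 3 motifs on either strand, so a motif of the other strand appears as its reverse complement. The positions are chr8:75109309-75109508 (plus strand) for Mcm5, chr1:128359706-128359905 (minus) for Mcm6, chr7:102441495-102441694 (plus) for Rrm1 and chr7:135716380-135716579 (minus) for Mki67. They are chr11:99024190-99024389 (minus) for Top2a, chr19:37376182-37376381 (plus) for Kif11 and chr9:61946800-61946999 (minus) for Kif23.
Mcm5: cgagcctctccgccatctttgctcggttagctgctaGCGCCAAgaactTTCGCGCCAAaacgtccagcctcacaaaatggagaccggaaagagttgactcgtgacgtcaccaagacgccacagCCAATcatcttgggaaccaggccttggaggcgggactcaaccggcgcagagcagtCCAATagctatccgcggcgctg
Mcm6: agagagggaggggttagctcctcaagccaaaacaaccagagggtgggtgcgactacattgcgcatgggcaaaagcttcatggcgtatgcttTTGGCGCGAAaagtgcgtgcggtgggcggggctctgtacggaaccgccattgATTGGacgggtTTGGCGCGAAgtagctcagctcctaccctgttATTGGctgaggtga
Rrm1: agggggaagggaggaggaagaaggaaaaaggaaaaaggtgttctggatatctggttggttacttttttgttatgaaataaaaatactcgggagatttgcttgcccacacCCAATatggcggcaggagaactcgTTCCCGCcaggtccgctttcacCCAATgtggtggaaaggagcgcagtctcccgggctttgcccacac
Mki67: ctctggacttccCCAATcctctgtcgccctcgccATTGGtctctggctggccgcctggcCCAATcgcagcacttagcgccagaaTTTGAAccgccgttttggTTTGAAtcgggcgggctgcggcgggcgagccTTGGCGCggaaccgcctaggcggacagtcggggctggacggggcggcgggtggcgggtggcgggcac
Top2a: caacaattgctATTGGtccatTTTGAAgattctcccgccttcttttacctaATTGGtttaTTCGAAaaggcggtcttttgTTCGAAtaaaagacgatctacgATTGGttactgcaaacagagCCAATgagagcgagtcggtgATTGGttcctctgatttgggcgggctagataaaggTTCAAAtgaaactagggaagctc
Kif11: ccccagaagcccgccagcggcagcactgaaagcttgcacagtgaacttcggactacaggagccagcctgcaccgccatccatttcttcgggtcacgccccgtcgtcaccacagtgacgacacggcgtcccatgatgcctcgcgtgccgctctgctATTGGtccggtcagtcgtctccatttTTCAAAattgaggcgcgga
Kif23: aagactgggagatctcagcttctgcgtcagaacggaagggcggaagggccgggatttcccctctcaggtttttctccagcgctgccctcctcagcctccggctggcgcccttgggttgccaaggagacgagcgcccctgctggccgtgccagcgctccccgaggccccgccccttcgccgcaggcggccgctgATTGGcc

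In Mcm5 the E2F matches start 164, 152 and 149 bases before the gene start, and in Rrm1 a single one starts at 67. Top2a has CHR matches at 179, 140, 120 and 23 bases before its start, and Kif11 has 1 at 19 beside a CCAAT box at 45. Mki67 holds CHR matches at 116 and 98 and an E2F match at 67.

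TPM (transcript abundance scaled for transcript length and to a common library total) keeps no read depth, so the depth is unknown and the spread between replicates is the measure of error. The 6 libraries listed 12122 to 12301 genes at 1 TPM or more. Gata2 itself was at 384, 464 and 546 TPM in controls 1, 2 and 3 and at 431, 530 and 416 TPM in Gata2cKO 1, 2 and 3. The groups overlapped (log2 fold change of -0.01, Gata2cKO minus control), so these values do not show the deletion. They cover the whole gene and cannot tell a deleted floxed stretch from an intact one, so they do not settle the labels either way. Control 1 stood apart: mitochondrial transcripts made up 21.9% of its total against 14.2% to 16.3% in the other controls and 13.2% to 15.2% in Gata2cKO. Clustered histone genes, whose messages are made in S phase and mostly lack a poly(A) tail, summed to 2768 TPM in control 1, to 1459 and 1439 TPM in controls 2 and 3, and to 1129, 1134 and 1394 TPM in Gata2cKO 1, 2 and 3. Calls that change without control 1 are given with and without it.

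None of the 40 cell cycle genes passed the test between Gata2cKO and control. All 40 passed the filter on low values and were among the 12300 genes tested with limma on log2(TPM + 1), at a Benjamini-Hochberg adjusted p of 0.05. In that test 7.47% of all genes were called, 5.73% higher and 1.74% lower in Gata2cKO, against 0 of 40 members. The members' adjusted p ranged from 0.0686 (Cenpa) to 0.976 (Cdc20). At an unadjusted p under 0.05 there were 11 members (27.5%), 6 higher and 5 lower, against 27.4% of all tested genes (19.2% higher, 8.17% lower). In 15 members (37.5%) the groups did not overlap, 8 higher and 7 lower, against 33.9% of all tested genes (23.4% higher, 10.5% lower). Both shares lie near those of the whole table. Overlap was read, here and below, on the TPM as deposited. Division by the median-of-ratios scaling factors (1.063 in Gata2cKO 2, 0.9736 to 0.9865 in controls) would make Mcm4, Mcm7, Pcna, Ccna2 and Top2a overlap. It would set E2f1, Ube2c and Tpx2 apart, with Gata2cKO lower. Without control 1, 2 members passed as higher and 1 as lower, beside 12.5% of all genes (9.01% higher, 3.5% lower), and without any 1 of the other libraries 0 members passed. In bulk tissue, fewer cycling cells and less RNA per cell cannot be told apart.

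The intervals say how large a change these data allow. For 36 of the 40 members the 95% interval of the log2 fold change (Gata2cKO minus control) lay inside a 1.5-fold change in either direction, that is within 0.58 of 0. That is 90.0% of the members, beside 77.0% of all tested genes and 80.5% of the 6926 genes with a mean TPM at least that of the lowest member. The 4 members whose intervals reached further were Ccne2 (up to 0.96), Ccnd1 (up to 0.69), E2f1 (down to -0.59) and Ube2c (down to -0.59). All 40 intervals lay inside a 2-fold change on the log2(TPM + 1) scale, with Ccne2 close to that bound. Adding 1 shrinks the changes of low genes, and with 0.1 added instead the log2 fold change of Ccne2 was 0.62. These counts of intervals were taken on the TPM as deposited, not with other scalings. Each interval is for its gene alone, with no adjustment for the number of members.

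**Figure D1:**
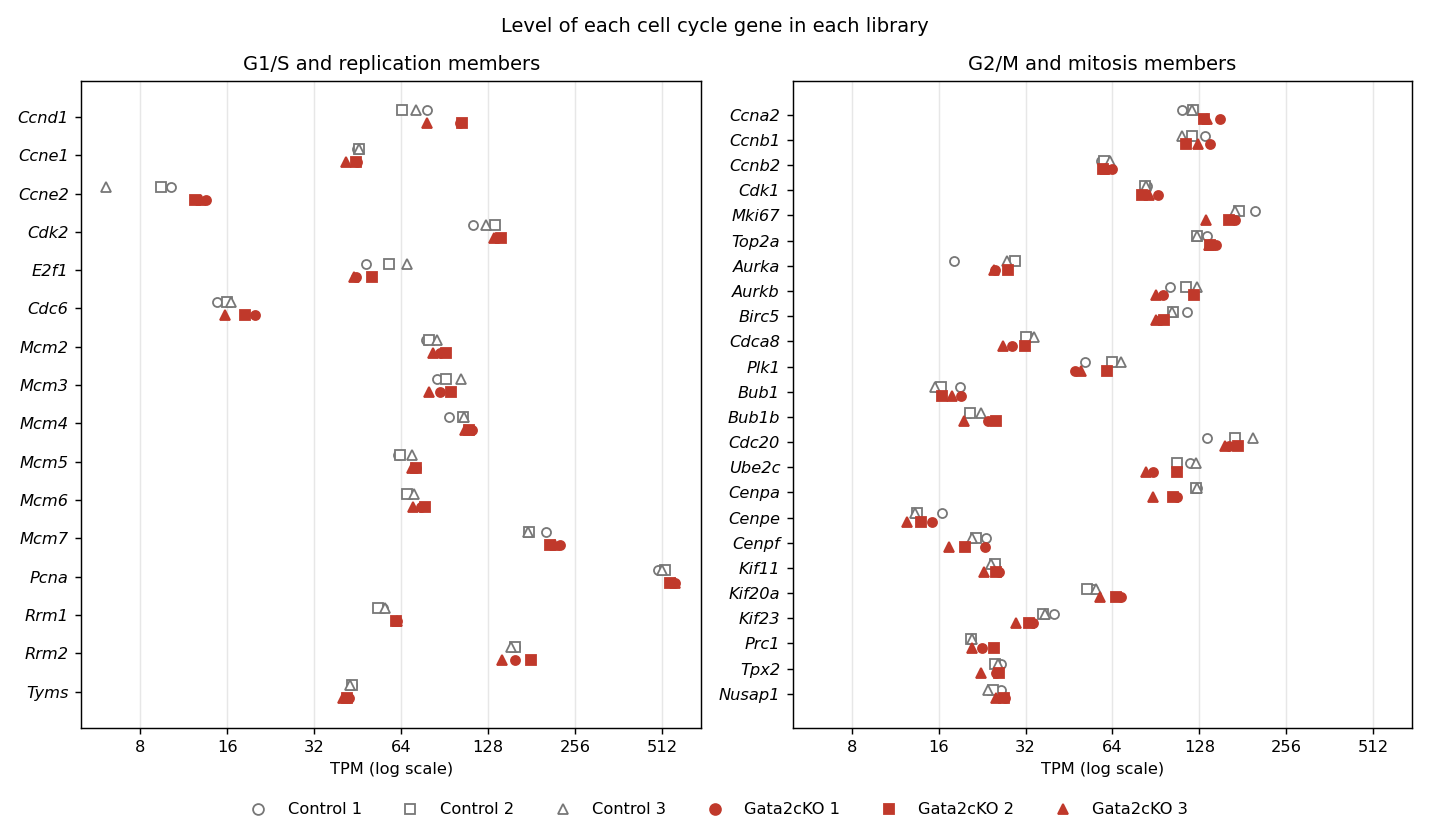
Level of each of the 40 members in each library, in TPM on a log axis, with the 16 G1/S members on the left and the 24 G2/M members on the right; open grey symbols are the 3 controls, filled red symbols the 3 Gata2cKO libraries, and the symbol shape gives the replicate. For most members the 6 symbols lie close together; Ccne2 and Cenpa are members whose red symbols lie clear of the grey ones, and Aurka has a single low value in control 1.

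The G1 cyclin genes Ccne2 and Ccnd1 had the highest log2 fold changes of the 40 members, and neither passed the test. Ccne2 encodes cyclin E2, a partner of Cdk2 at the start of S phase (chromosome 4, 11191351 to 11204779, GRCm38). It was at 10.2, 9.40 and 6.09 TPM in controls 1, 2 and 3 and at 13.5, 12.4 and 13.0 TPM in Gata2cKO 1, 2 and 3. All 3 Gata2cKO values lay above all 3 controls, and control 3 was the lowest. The means were 8.57 ± 2.19 and 13.0 ± 0.549 TPM (SD, n = 3 each), a log2 fold change of 0.57 (SE 0.17) with a limma adjusted p of 0.0788. Without control 1 this adjusted p was 0.0306, and over all removals of a library it ranged up to 0.220.

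Ccnd1, which encodes cyclin D1, the sensor of growth signals in G1, was at 78.9, 64.4 and 72.0 TPM in controls and at 102, 104 and 78.9 TPM in Gata2cKO 1, 2 and 3. Gata2cKO 3 lay level with the highest control, and the other Gata2cKO libraries lay above every control. Its log2 fold change came to 0.39 (SE 0.13) with a limma adjusted p of 0.101. Ccne1, the other E cyclin, was at 45.2, 45.7 and 45.6 TPM in controls and at 45.0, 44.8 and 41.4 TPM in Gata2cKO (limma adjusted p = 0.659). Within each library, Ccne2 stood at 22.6%, 20.6% and 13.4% of the Ccne1 level in controls and at 30.0%, 27.7% and 31.4% in Gata2cKO. This ratio does not depend on how a library is scaled, and its groups did not overlap. The transcripts differ in GC content (36.3% for Ccne2, 52.7% for Ccne1), so library trends with GC, given below, can reach it. Their part in the ratio was not tested. Cdk2, the kinase of the E cyclins, was at 114 to 135 TPM in controls and 134 to 142 TPM in Gata2cKO, so its groups overlapped.

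E2f1, the activator that drives many of the other G1/S genes (chromosome 2, 154559407 to 154569892), had lower values in Gata2cKO. It was at 48.4, 57.9 and 66.9 TPM in controls and at 44.6, 50.7 and 44.0 TPM in Gata2cKO. Gata2cKO 2 lay above control 1, so the groups overlapped. Its log2 fold change came to -0.30 (SE 0.13) with a limma adjusted p of 0.174. Without control 1 these were -0.42 and 0.0369, and without any 1 other library the adjusted p was 0.180 to 0.379.

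Genes that license origins and unwind DNA had log2 fold changes from -0.09 to 0.24. Cdc6, which loads the MCM helicase onto origins, was at 14.72, 15.997 and 16.4 TPM in controls and 19.9, 18.4 and 15.8 TPM in Gata2cKO, with overlap. The 6 subunits of the MCM helicase, Mcm2 to Mcm7, summed to 591, 584 and 610.5 TPM in controls and to 661, 656 and 628 TPM in Gata2cKO. On the TPM scale the sum was higher in each Gata2cKO library than in each control. Divided by the median-of-ratios factors (1.063 and 0.9865), the sum of Gata2cKO 2 would fall below that of control 3. Mcm7 was the most abundant subunit, at 203, 178 and 175 TPM in controls and 227, 209 and 219 TPM in Gata2cKO. Its groups did not overlap on the TPM scale, with a log2 fold change of 0.24 (SE 0.09, limma adjusted p = 0.128, and 0.0352 without control 1). Among the other subunits only Mcm4 had groups that did not overlap on that scale (94.0 to 106 TPM in controls, 106 to 113 TPM in Gata2cKO). Mcm3 was the subunit with a negative log2 fold change (-0.09).

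Pcna, the sliding clamp of the replicative polymerases, was the most abundant member on the TPM scale. It was at 498, 525 and 513 TPM in controls and at 569, 544 and 569 TPM in Gata2cKO. The groups did not overlap on the TPM scale, yet the difference was small (log2 fold change 0.13 with an SE of 0.07, limma adjusted p = 0.297).

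None of the 3 genes of nucleotide supply passed the test. Rrm1, the large subunit of ribonucleotide reductase, was at 55.2, 53.03 and 56.4 TPM in controls and at 62.1, 61.6 and 62.1 TPM in Gata2cKO. The groups did not overlap and the spread was small (log2 fold change 0.17, SE 0.07, limma adjusted p = 0.162). Rrm2, the small subunit, was at 154 to 159 TPM in controls and at 143 to 179.9 TPM in Gata2cKO, on both sides of the control values. Tyms, the thymidylate synthase, was at 42.6 to 43.3 TPM in controls and at 40.4 to 42.4 TPM in Gata2cKO, a difference of -0.05 on the log2 scale (limma adjusted p = 0.652).

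**Figure D2:**
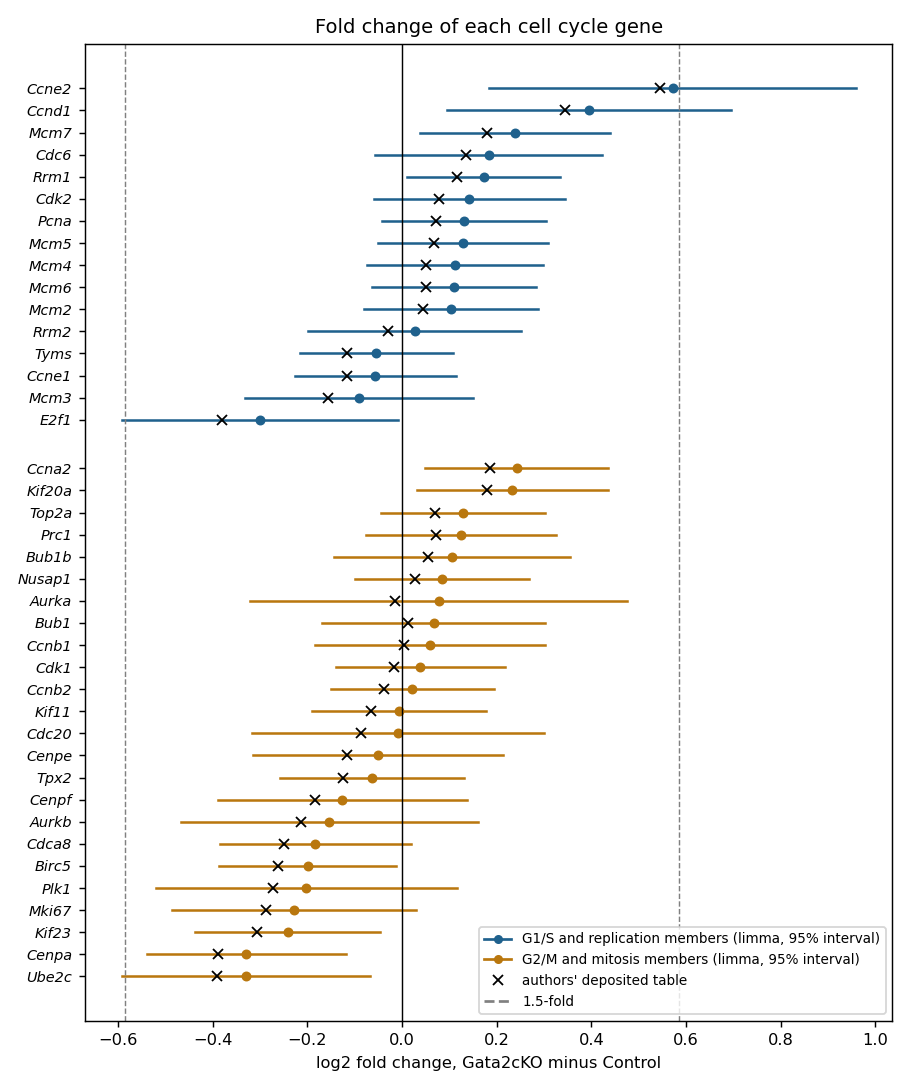
Log2 fold change of each member (horizontal axis, control subtracted from Gata2cKO, log2(TPM + 1) scale) with its 95% limma interval, G1/S members above and G2/M members below, each sorted by value; crosses give the authors' deposited log2 fold change and dashed lines a 1.5-fold change. The intervals of Ccne2, Ccnd1, E2f1 and Ube2c reach past a dashed line, and the crosses lie to the left of the points.

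The cyclins and kinase that take cells into mitosis had small log2 fold changes. Cdk1, their kinase, was at 84.6, 82.9 and 83.7 TPM in controls and at 91.7, 80.9 and 85.8 TPM in Gata2cKO (log2 fold change 0.04, interval -0.14 to 0.22). Ccnb1 and Ccnb2, the B cyclins, had log2 fold changes of 0.06 and 0.02, with intervals of -0.18 to 0.30 and -0.15 to 0.19. With median-of-ratios scaling the values of Cdk1, Ccnb1 and Ccnb2 turned slightly negative (-0.02, -0.0028 and -0.04). Ccna2 encodes cyclin A2, which acts from S phase to the start of mitosis. It was at 112, 122 and 120.4 TPM in controls and at 151, 133 and 136 TPM in Gata2cKO. On the TPM scale every Gata2cKO value lay above every control (log2 fold change 0.24 with an SE of 0.08, limma adjusted p = 0.114).

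Neither of the usual markers of proliferating cells, Mki67 and Top2a, passed the test. Mki67, which encodes the Ki-67 antigen, was at 199, 176 and 170.3 TPM in controls and at 170.0, 162 and 135 TPM in Gata2cKO. The groups were set apart by less than 1 TPM, with Gata2cKO 3 the lowest (log2 fold change -0.23, SE 0.11, limma adjusted p = 0.231). Top2a, the topoisomerase that untangles replicated chromosomes, was at 136, 126 and 125 TPM in controls and at 146, 139 and 139 TPM in Gata2cKO. Here every Gata2cKO value lay above every control on the TPM scale (log2 fold change 0.13, SE 0.07, limma adjusted p = 0.306).

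Cenpa had the smallest adjusted p of the 40 members. It encodes the histone H3 variant that marks centromeres (chromosome 5, 30666777 to 30674830). Its values were 126, 124 and 126 TPM in controls and 107, 104 and 88.6 TPM in Gata2cKO. The controls were tightly grouped, and all Gata2cKO libraries lay below them, Gata2cKO 3 furthest. The means were 125 ± 0.717 and 99.9 ± 9.90 TPM (SD, n = 3 each), with a log2 fold change of -0.33 (SE 0.09, limma adjusted p = 0.0686). With median-of-ratios scaling Cenpa passed (-0.39, limma adjusted p = 0.0353), the only member to do so, beside 7.27% of all genes (3.98% higher, 3.29% lower). With upper-quartile scaling the same was seen (-0.37, limma adjusted p = 0.0443), beside 7.5% of all genes (4.71% higher, 2.79% lower). Without any 1 library its adjusted p was 0.0635 to 0.183. The centromere motor gene Cenpe and the kinetochore gene Cenpf had overlapping groups, with log2 fold changes of -0.05 and -0.13. Without control 1 that of Cenpe was 0.04.

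Genes of mitotic exit and of the chromosomal passenger complex had lower mean values in Gata2cKO, and none passed the test. Ube2c, the ubiquitin-conjugating enzyme of the anaphase-promoting complex (chromosome 2, 164769898 to 164778822), was at 118, 107 and 124 TPM in controls and at 88.2, 107 and 83.4 TPM in Gata2cKO. Gata2cKO 2 lay level with the lowest control, and the others lay below (log2 fold change -0.33, SE 0.11, limma adjusted p = 0.113). Birc5, or survivin, was at 116, 104 and 103 TPM in controls and at 93.5, 96.9 and 90.4 TPM in Gata2cKO, without overlap (log2 fold change -0.20, limma adjusted p = 0.159). Its partner Cdca8, or borealin, was at 32.2 to 34.2 TPM in controls and 26.8 to 31.8 TPM in Gata2cKO, without overlap. Aurkb, the kinase of the complex, was at 101, 115 and 126 TPM in controls and 95.5, 123 and 90.3 TPM in Gata2cKO, with overlap. Cdc20, the activator of the anaphase-promoting complex, had a log2 fold change of -0.01 (interval -0.32 to 0.30). Its level in control 1 was 25.5% below the mean of controls 2 and 3, and without control 1 its log2 fold change was -0.15.

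Of the remaining mitotic kinases and checkpoint genes, Plk1 was at 51.5, 63.6 and 68.4 TPM in controls and 47.5, 61.5 and 49.9 TPM in Gata2cKO, with overlap (log2 fold change -0.20). Aurka, the kinase of spindle poles, had the widest interval of the G2/M members (-0.32 to 0.47). It was at 18.1 TPM in control 1 against 29.4 and 27.6 TPM in controls 2 and 3, and at 24.8 to 27.9 TPM in Gata2cKO. Its log2 fold change was 0.08, and -0.13 without control 1. Bub1 and Bub1b, of the spindle checkpoint, had overlapping groups with log2 fold changes of 0.07 and 0.11.

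The genes of the spindle and of cytokinesis gave values on both sides. Kif23, a motor of the central spindle, was at 40.3, 36.8 and 37.5 TPM in controls and at 33.8, 32.9 and 29.7 TPM in Gata2cKO. Its groups did not overlap (log2 fold change -0.24, SE 0.08, limma adjusted p = 0.116). Kif20a, another motor of the central spindle, went the other way, at 54.9, 52.1 and 55.9 TPM in controls and 68.5, 65.9 and 58.1 TPM in Gata2cKO (log2 fold change 0.23, SE 0.09, limma adjusted p = 0.137). Prc1, which bundles the microtubules of that spindle, was at 20.7 to 20.9 TPM in controls and 20.9 to 24.9 TPM in Gata2cKO. Kif11, the motor that separates the poles, was nearly equal, at 24.3 to 25.2 TPM and 23.1 to 25.9 TPM (log2 fold change -0.01, interval -0.19 to 0.18). The spindle assembly gene Tpx2 and the microtubule-binding gene Nusap1 overlapped between groups, with log2 fold changes of -0.06 and 0.08.

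As classes, the G1/S members lay slightly above the whole table and the G2/M members slightly below it. The median log2 fold change was 0.12 over the 16 G1/S members and -0.01 over the 24 G2/M members, beside 0.05 over all 12300 tested genes. A positive log2 fold change was found for 12 of 16 and 11 of 24 members, beside 59.5% of all tested genes. The ratio of the geometric mean TPM of the G2/M members to that of the G1/S members does not depend on the scaling of a library. It was 0.751, 0.738 and 0.746 in controls 1, 2 and 3 and 0.676, 0.672 and 0.656 in Gata2cKO 1, 2 and 3. All Gata2cKO values lay below all controls, and the spread within a group was small (0.745 ± 0.00692 and 0.668 ± 0.0107, SD, n = 3 each). No test is attached to this ratio, since the members were chosen with results of these data known. The class medians differed by 0.13 on the log2 scale, and by 0.11 to 0.15 over the 16 alternative settings and removals of a library.

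**Figure D3:**
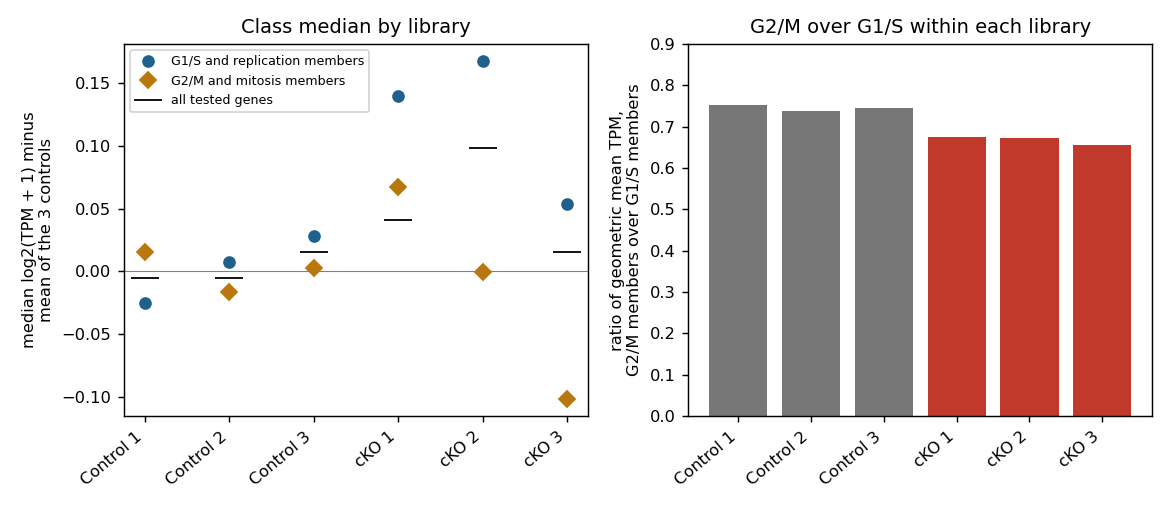
Left, the median over each class of log2(TPM + 1) minus the mean of the 3 controls, by library, with the median of all tested genes as a bar; right, the ratio of geometric mean TPM of the 24 G2/M members to the 16 G1/S members in each library, from 0. The ratio is 0.738 to 0.751 in controls and 0.656 to 0.676 in Gata2cKO, and in each Gata2cKO library the G1/S median lies above the G2/M median.

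Grouped by promoter letters instead, the 7 members with an E2F match and no CHR match (Ccnb1, Cdc6, Cdk2, Mcm5, Mcm6, Rrm1, Rrm2) all had positive log2 fold changes, from 0.03 to 0.18 with a median of 0.13. Those of Rrm2 and Ccnb1 turned negative with median-of-ratios scaling (-0.04 and -0.0028). All of these members but Ccnb1 are G1/S members, so the grouping largely repeats the split by class. The 8 with a CHR match and no E2F match ranged from -0.33 (Ube2c) to 0.13 (Top2a), with a median of 0.06. The 3 with both matches ranged from -0.23 (Mki67) to 0.24 (Mcm7). Their median was 0.04 (Cdk1), and 2 of them were positive, so not every member with an E2F match was positive. The 15 with neither had a median of -0.09, and 4 of them were positive. Over all tested genes 59.5% were positive and the median was 0.05. The window holds no more than these letters, and members not matched to a promoter, among them Ccne2 and Ccnd1, are not in this grouping.

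The authors' deposited table, made with its own test, gives more calls. Of the 40 members, 7 (17.5%) have an adjusted p under 0.05 in the authors' deposited table, beside 13.3% of its 14366 genes (6.69% higher, 6.58% lower). It lists Ccne2 (log2 fold change 0.54, adjusted p = 0.0448) and Ccnd1 (0.34, adjusted p = 0.0401) as higher. The authors' deposited table lists Cenpa (-0.39, adjusted p = 0.00199), Ube2c (-0.39, adjusted p = 0.00548), Kif23 (-0.31, adjusted p = 0.0140), E2f1 (-0.38, adjusted p = 0.0312) and Mki67 (-0.29, adjusted p = 0.0461) as lower. These are members with low p-values in the limma test too, apart from Mki67, whose unadjusted limma p was 0.0757. Both tests use the same libraries. Ccna2, Mcm7, Kif20a and Rrm1 (higher) and Birc5 (lower) had unadjusted limma p from 0.0207 to 0.0404, and the authors' deposited table does not call them.

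Part of the spread within each group followed the base composition of the transcripts. Across the 40 members, the deviation of a library from its group mean had a Spearman correlation with transcript GC content of -0.59 in control 1, 0.02 in control 2 and 0.74 in control 3. It was -0.45, 0.56 and -0.25 in Gata2cKO 1, 2 and 3. Across 12284 tested genes the values were -0.41, 0.07, 0.53, -0.42, 0.44 and -0.10 in the same order. These are correlations across genes of shared libraries, given as a description. For each gene the deviations cancel within a group, so opposite tilts among its libraries are partly fixed in advance. The members lowest in control 1 relative to controls 2 and 3 were Aurka, Cdc20, E2f1 and Plk1, by 36.5%, 25.5%, 22.4% and 22.02%, with GC contents of 51.4%, 55.6%, 58.3% and 56.0%. Ccne2, whose GC content of 36.3% is the lowest of the members, was higher in control 1 than in controls 2 and 3. Not every GC-rich member was low in control 1. Relative to the mean of controls 2 and 3, Mcm7 (GC 53.4%) stood at 1.15 and Ube2c (55.5%) at 1.03 there. The difference between groups had a correlation with GC of -0.25 across members and -0.08 across all tested genes.

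With a smooth GC trend taken out of each library, an alternative chosen after the data were seen, 6 of 40 members (15.0%) passed limma's threshold beside 12.6% of all genes (6.77% higher, 5.85% lower). Ccne2 rose (log2 fold change 0.52, limma adjusted p = 0.0338). Cenpa (-0.39, limma adjusted p = 0.0185), Kif23 (-0.31, 0.0253), E2f1 (-0.32, 0.0323), Birc5 (-0.27, 0.0350) and Ube2c (-0.37, 0.0359) fell. The trend was taken out with its level, so this step also rescales each library. With median-of-ratios scaling, which uses no GC content, log2 fold changes were 0.51 for Ccne2 and -0.39 for Cenpa. Those of Kif23, E2f1, Birc5 and Ube2c were -0.30, -0.36, -0.26 and -0.39. The part of GC alone was not tested.

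**Figure D4:**
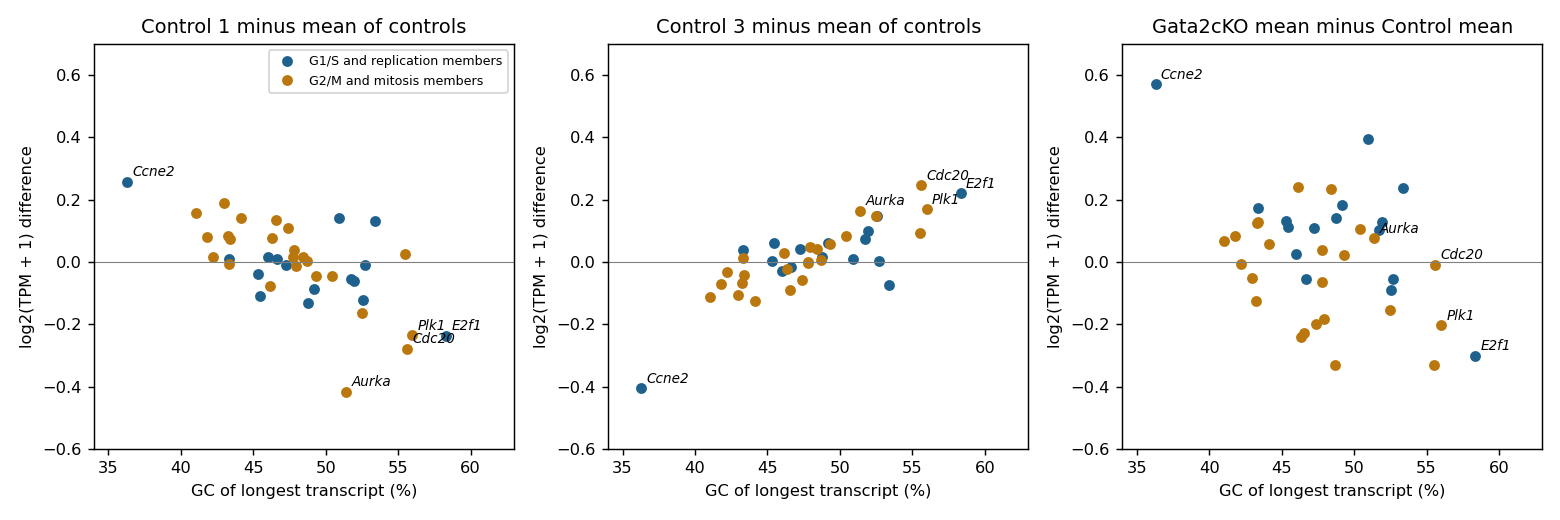
Each point is 1 of the 40 members; the horizontal axis is the GC content of its longest transcript in percent and the vertical axis a difference in log2(TPM + 1). Control 1 (left, Spearman -0.59) and control 3 (middle, 0.74) tilt in opposite directions around the control mean, while the difference between groups (right, -0.25) shows a weaker tilt with Ccne2 and E2f1 at its ends. For each gene the deviations of the controls cancel, so their opposite tilts are partly fixed in advance.

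Few genes of the wider cell cycle machinery passed. In 7 further lists of cell cycle genes, 3 of 128 distinct tested genes (2.34%) passed the test, 2 higher and 1 lower, beside 7.47% of all genes. No gene passed among 20 of origin licensing and helicase activation (median log2 fold change -0.04) or among 25 of the replication fork and nucleotide supply (0.00). The higher median of the G1/S members was not seen in these lists. The most abundant of each, the licensing factor Cdt1 and the single-strand binding subunit Rpa3, had log2 fold changes of -0.10 and 0.06. The smallest p-values were those of Gins2 (0.24) and Dbf4 (-0.18) in the former and Rpa1 (0.27) and Rfc3 (-0.18) in the latter, with limma adjusted p from 0.111 to 0.234.

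Of 35 tested genes of the kinetochore, checkpoint and spindle, 0 rose and 1 fell (median log2 fold change -0.06). Spc25, a subunit of the Ndc80 complex that ties kinetochores to microtubules, was at 56.0, 50.2 and 49.6 TPM in controls and at 37.4, 37.8 and 38.8 TPM in Gata2cKO. The groups were well apart, and it fell by 0.44 on the log2 scale (SE 0.08, limma adjusted p = 0.0225). Without any 1 of 5 libraries its adjusted p was 0.0535 to 0.103, and without control 1 it was 0.0193. The most abundant gene of the list, Cdca3, was at 212, 213 and 221 TPM in controls and at 190.0, 182 and 169 TPM in Gata2cKO (limma adjusted p = 0.0847).

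Of 16 tested cell cycle transcription factors none passed (median log2 fold change -0.08). Foxm1, the activator of G2/M genes, was at 59.4, 60.2 and 68.2 TPM in controls and at 42.8, 54.8 and 34.8 TPM in Gata2cKO. The groups did not overlap, and the Gata2cKO values were widely spread (log2 fold change -0.52 with an SE of 0.16, limma adjusted p = 0.0841). The authors' deposited table gives Foxm1 an adjusted p of 0.000945 (log2 fold change -0.57). E2f6, a repressor of the E2F family, was at 32.5 to 35.5 TPM in controls and at 39.97 to 41.8 TPM in Gata2cKO (log2 fold change 0.25, limma adjusted p = 0.0806). E2f4, the most abundant of them, overlapped between groups.

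In the list of other G1 cyclins and kinases, which also holds regulators such as Myc, Mycn and Skp2, 1 of 12 rose and 0 fell. The gene that rose is neither a cyclin nor a kinase. Mycn, the Myc family factor of embryonic growth, was at 57.7, 49.9 and 55.7 TPM in controls and at 69.9, 77.7 and 69.4 TPM in Gata2cKO. The groups did not overlap, and Mycn rose by 0.40 on the log2 scale (SE 0.09, limma adjusted p = 0.0375). Its adjusted p was 0.0844 to 0.125 without any 1 library other than control 1, and 0.0224 without control 1. With mitochondrial genes left out it was 0.0750. Cdk4, the kinase of the D cyclins, was the most abundant of that list, at 917, 1075 and 1121 TPM in controls and 1098, 1072 and 1056 TPM in Gata2cKO.

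None of 9 tested kinase inhibitors and pocket proteins passed. Cdkn1c, the imprinted inhibitor p57, was far the most abundant at 1754, 1679.7 and 1588 TPM in controls and 1719, 1704 and 1834 TPM in Gata2cKO, with overlap (log2 fold change 0.07, interval -0.13 to 0.27). Rbl2, a pocket protein of resting cells, was at 5.70 to 7.0 TPM in controls and 7.51 to 9.59 TPM in Gata2cKO (log2 fold change 0.34, limma adjusted p = 0.105). Cdkn2b stood near the floor of detection, at 1.23 to 1.52 and 0.439 to 1.21 TPM. Of 12 genes that respond to p53, 1 rose and 0 fell. That was Ccng1, or cyclin G1, at 64.2, 64.4 and 55.2 TPM in controls and 79.4, 77.0 and 82.3 TPM in Gata2cKO (log2 fold change 0.37, SE 0.09, limma adjusted p = 0.0443). Its call was lost in 5 of the 6 removals of a library (limma adjusted p 0.0853 to 0.148) and with median-of-ratios scaling (0.0852), upper-quartile scaling (0.0837) and mitochondrial genes left out (0.105). Phlda3, the most abundant of that list, overlapped between groups.

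**Figure D5:**
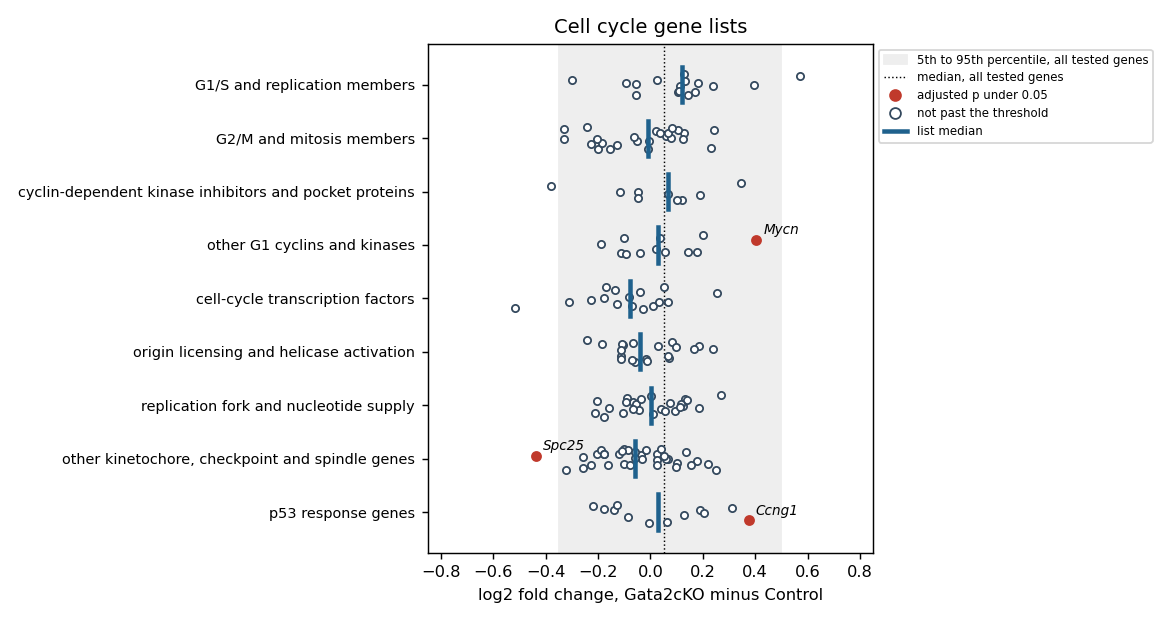
Log2 fold change (Gata2cKO minus control) of each tested gene of the 2 member classes and the 7 further lists, with the list median as a vertical bar; grey shading spans the 5th to 95th percentile of all tested genes and the dotted line is their median (0.05). Filled points passed the test: Mycn and Ccng1 on the higher side and Spc25 on the lower side, with none among the members.

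Marker genes of the cell types that the tissue could hold were summed beside these levels. Their counts of genes that passed stand beside 5.73% higher and 1.74% lower among all tested genes. Genes of the mesonephric mesenchyme summed to 8431 to 10411 TPM in controls and 9195 to 11624 TPM in Gata2cKO, with 1 of 10 tested genes higher and 3 lower. Genes of the duct epithelium summed to 900.1 to 973 TPM in controls and 1160.3 to 1187 TPM in Gata2cKO, with 3 of 11 higher. Markers of mesenchyme and of duct were thus present in every library. Endothelial markers (335 to 435 TPM in controls, 463 to 561 TPM in Gata2cKO; 3 of 9 higher), mesothelial markers (353 to 456 and 572 to 668 TPM; 4 of 6 higher) and macrophage markers (365 to 450.0 and 476 to 532 TPM; 2 of 9 higher) also had higher sums. The duct and mesothelial lists share Krt19, so they are not fully separate. Mast cell markers summed to 101 to 142 and 277 to 301 TPM (3 of 6 higher), and neutrophil markers to 9.88 to 33.7 and 51.5 to 164 TPM (2 of 4 higher). Smooth muscle markers were lower, at 1006 to 1116 and 779 to 858 TPM (3 of 7 lower). Erythroid markers, led by globins, spread from 6900 to 18315 TPM in controls, highest in control 1, and from 10563 to 13864 TPM in Gata2cKO, with 1 of 11 higher. Markers of germ cells and gonad stayed at 34.6 to 46.0 and 30.7 to 39.9 TPM, and 0 of 3 tested passed. No marker found in the table was at 0 in all 6 libraries. The part that these cell types have in the levels of the cell cycle genes was not tested.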

How the data were processed

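RNA-seq libraries of 3 control and 3 Gata2cKO mesonephroi were analysed from 1 deposited gene table. Its values were taken as TPM made by the authors, since each library's values, as deposited, sum to 997351 to 998844 and no header names the unit. Beside them stand log2 fold changes and p-values, raw and adjusted, computed by the authors. Per the submitters' processing notes, STAR 2.7.11a, DESeq2, DESeq and GRCm38 were used, with no roles given; quantifier and gene filter: not given in the sources used here. Per the labels' protocols, RNA was captured with poly-T beads; whether strand was kept is not given.

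Columns were assigned by the library names in the labels. Genes at 1 TPM or more in at least 3 of 6 libraries (12300) were fitted with limma 3.58.1 (R 4.3.3), with a variance trend, on log2(TPM + 1) with a term for group. P-values are two-sided, adjusted by Benjamini-Hochberg over all tested genes at 0.05; the design foresaw counts or normalized values, and the latter applied. TPM keeps no depth. Positions and transcript GC content (longest transcript) come from GENCODE M21 (GRCm38), matched for 14345 of 14366 genes. On simulated data for this comparison, made from 12300 genes with 200 changed, the test recovered 37.1% of 1.5-fold, 87.0% of 2-fold and 97.9% of 4-fold changes, with 1, 7 and 12 false calls. Its noise was drawn independently for each gene, without the deviations that genes of a library share. The false calls therefore do not measure those in the real data.

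The members and lists were chosen with earlier results of these data known. Named are all 40 members and, of each further list, up to 4 genes past the threshold with the smallest adjusted p (otherwise the 2 with the smallest p) and the most abundant. Alternatives were removal of each library, a replicate block, 3 other scalings, a pseudocount of 0.1, no filter, no variance trend, the authors' table and, chosen after seeing the data, a GC correction (lowess, span 0.3) with and without the block. The GC correction also takes out the overall level of each library.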

Additional observations from a re-analysis of the deposited data

How the results depend on the processing

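Over the 40 members, 579 of 640 comparisons with an alternative kept direction and side of the threshold, 20 passed only under the alternative and 41, in 9 members, changed sign; none of those 9 was called. Calls over all genes numbered 919, against 116 to 1539 without 1 library (fewest without Gata2cKO 1, most without control 1), 1906 in the authors' deposited table and 1550 with GC correction. The split of higher to lower calls was 705 to 214, and 489 to 404 with median-of-ratios scaling, 579 to 343 with upper-quartile scaling, 436 to 282 with mitochondrial genes left out, 832 to 718 with GC correction and 961 to 945 in the authors' deposited table. Members called higher numbered 0 (0 to 2 without 1 library, 2 in the authors' table, 1 with GC correction). Members called lower numbered 0 (0 to 1 without 1 library, 1 with either scaling, 5 in the authors' table, 5 with GC correction). By class, G1/S calls were 0 to 3 without 1 library, 3 in the authors' table and 2 with GC correction, and G2/M calls 0 without any 1 library, 1 with either scaling, 4 in the authors' table and 4 with GC correction. Calls in the 7 further lists went from 3 to 0 to 4 without 1 library, 1 with mitochondrial genes left out, 8 in the authors' table and 7 with GC correction. The G1/S median of 0.12 was 0.0583 with median-of-ratios scaling, 0.0596 with mitochondrial genes left out, 0.0590 in the authors' table and 0.0569 with GC correction; without 1 library it was 0.09 to 0.14, and the G2/M median -0.04 to 0.03. The cause of these shifts was not tested.

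The samples were not treated as paired by replicate number in the main test. The correlation of deviations of same-numbered samples was 0.25, -0.07 and 0.04, and that of different-numbered samples ranged from -0.28 to 0.21. Deviations cancel within a group, so these values cannot settle whether the numbers pair the samples. With a replicate block, 774 genes and 0 members were called, and 1 gene of the further lists (Spc25, limma adjusted p = 0.0423); those of Mycn and Ccng1 were 0.0659 and 0.0718. With replicate block and GC correction, 1 member was called higher (Ccne2), 1 lower (Cenpa) and 1 gene of the further lists, and the G1/S median was 0.0569.

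The members and list genes whose log2 fold change changed sign were these. With median-of-ratios scaling Rrm2 was at -0.0352, Ccnb1 -0.0028, Ccnb2 -0.0394, Cdk1 -0.0229, Cdk4 -0.0061 and Rpa3 -0.0050. With upper-quartile scaling Rrm2 was at -0.0149, Ccnb2 -0.0194 and Cdk1 -0.0027. With mitochondrial genes left out Rrm2 was at -0.0340, Ccnb1 -0.0017, Ccnb2 -0.0384, Cdk1 -0.0218, Cdk4 -0.0049 and Rpa3 -0.0038. The authors' deposited table gives Rrm2 -0.0298, Ccnb2 -0.0380, Cdk1 -0.0176, Aurka -0.0146, Cdk4 -0.0094, Rpa3 -0.00081 and Phlda3 -0.0101. GC correction, with or without the block, gave Rrm2 -0.0398, Ccnb1 -0.0123, Ccnb2 -0.0416, Cdk1 -0.0277 and Bub1 -0.0029. Without 1 library the ranges were -0.0578 to 0.11 for Rrm2, -0.0103 to 0.13 for Ccnb1, -0.0082 to 0.0501 for Ccnb2, -0.0071 to 0.0821 for Cdk1, -0.13 to 0.20 for Aurka, -0.15 to 0.11 for Cdc20, -0.11 to 0.0434 for Cenpe, -0.0386 to 0.0430 for Kif11, -0.0302 to 0.11 for Cdk4, -0.0236 to 0.14 for Rpa3 and -0.0640 to 0.15 for Phlda3. TPM carries no depth, so counting error could not be separated from the spread between samples.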
